A study of Mus musculus with 6 samples.

Results

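The genes described here encode the lysosome and its proton pump, the vacuolar ATPase (V-ATPase), in bEnd.3 cells, a mouse endothelial cell line. They are 23 listed lysosome genes and every protein-coding gene of the deposited table whose name starts with Atp6v0 or Atp6v1, which added 23 more, 9 of the V0 and 14 of the V1 kind. That gives 46 of 55401 genes. One of them, Atp6v1fnb, carries the prefix in its name only. In the first group, wild-type bEnd.3 cells were co-incubated during 24 h with mitochondria that had been isolated from the osteocyte-like mouse line MLO-Y4 and suspended in 100 ul of culture medium (mitochondria libraries, n = 3). In the control group, wild-type bEnd.3 cells received as much medium without mitochondria (control libraries, n = 3). Both groups grew in the same high-glucose medium with serum. The labels do not state whether the libraries of a group are separate cultures, so a p-value here may reflect technical spread alone.

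Lysosomes are acidic organelles that break down material taken up by endocytosis and phagocytosis or enclosed by autophagy, including whole organelles. Soluble hydrolases work in their lumen, heavily glycosylated proteins such as LAMP1 and LAMP2 line their membrane, and the V-ATPase acidifies them: its V1 sector in the cytosol splits ATP and its V0 sector in the membrane carries the protons. The transcription factors TFEB, TFE3 and MITF bind E-box sequences of the form CACGTG near many of these genes, and the kinase complex mTORC1, which sits on the lysosome surface, keeps TFEB in the cytosol when nutrients are plentiful.

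Of the 46 genes, 39 had promoter windows in RefSeq (GRCm38.p6), each from 250 bases before to 50 after an annotated start. The letters CACGTG, which read the same on both strands, were in 11 of their 49 windows (22.4%), against 2349 of all 32851 windows (7.15%). The longer TCACGTGA, which contains CACGTG and also reads the same on both strands, was in 7 of the 49 (14.3%) and in 0.974% of all windows. Of the 11 genes with CACGTG, 4 had a fold change (mitochondria over control) above 1 and 7 below 1, and of the 21 tested genes with a window but without these letters 10 lay above 1 and 11 below. Sites of 5 genes are shown because genes with values above and below the control level hold the same letters. CACGTG is in capitals, and the distance is from its first base to the RefSeq start. Mcoln1 and Ctsd each hold 2 copies, of which 1 is shown, and the other lies 71 bases before the start in Mcoln1 and 245 in Ctsd.
Lamp1 (chr8:13159075-13159160, plus strand, 4 copies from 61 to 15 bases before the start): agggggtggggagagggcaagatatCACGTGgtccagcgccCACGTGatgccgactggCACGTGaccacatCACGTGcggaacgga
Mcoln1 (chr8:3500462-3500491, plus strand, 45 bases before the start): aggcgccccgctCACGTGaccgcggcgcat
Atp6v1a (chr16:44139373-44139402, minus strand, 131 bases before the start): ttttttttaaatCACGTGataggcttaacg
Ctsd (chr7:142387908-142387937, minus strand, 98 bases before the start): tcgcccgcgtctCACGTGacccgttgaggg
Ctsl (chr13:64370739-64370768, minus strand, 236 bases before the start): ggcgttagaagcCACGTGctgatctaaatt
A match describes the letters and does not show that a factor binds there.

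Estimated counts summed to between 65394770 and 73376834 per library, with 22452 to 22875 genes detected. Endothelial markers went partly against the label of the line. Of 14 listed, 5 (Cd34, Eng, Flt1, Tie1 and Ly6a) had a mean FPKM (fragments scaled by gene length and by library size) of at least 1, Pecam1 had 65 to 83 counts in mitochondria and 82 to 104 counts in control libraries, and Cldn5 was at 0 in all 6. The list summed to 2470 to 2553 CPM (counts scaled to library size) in mitochondria and 2064 to 2375 CPM in control libraries, without overlap. Most of that sum was Cd34, at 1545 to 1718 CPM in mitochondria and 1302 to 1556 CPM in control libraries, with overlap. Of the 5 genes 4 had fold changes above 1. Eng lay below 1, at 265 to 284 CPM in mitochondria and 288 to 361 CPM in control libraries. The part of this list in the results below was not tested. Macrophages are rich in lysosomes, and 2 of 8 macrophage markers, Csf1r and Lyz2, had a mean FPKM of at least 1. Tyrobp was at 0 in every library and Ptprc in all but 1, and the list summed to 15.4 to 24.8 CPM in mitochondria and 14.1 to 23.3 CPM in control libraries. Of 6 osteoclast markers 0 had a mean FPKM of 1, and they summed to 3.35 to 3.82 CPM in mitochondria and 1.62 to 2.74 CPM in control libraries. Of 6 osteocyte markers Fgf23 alone did, Dmp1 and Mepe were at 0 in every library, and the list summed to 3.39 to 3.55 CPM in mitochondria and 2.31 to 4.08 CPM in control libraries. Pancreatic acinar genes, 18 in the list and 14 of them at a mean FPKM of at least 1, summed to 54.8 to 60.9 CPM in mitochondria and 152 to 251 CPM in control libraries. Nearly all of the mitochondria sum was Cela1, at 53.7 to 59.3 CPM, with 57.6 to 74.9 CPM in control libraries. Like most of the list, Ctrb1 had 0 counts in every mitochondria library, and it had 1493 to 3156 counts in control libraries. Of the 14, 10 passed the edgeR test described below, all lower, against 0.164% of all tested genes. Of 14 hepatocyte genes 7 had a mean FPKM of at least 1, and the list summed to 59.5 to 133 CPM in mitochondria and 107 to 115 CPM in control libraries. Apoc1 had the largest part of that sum, and in mitochondria replicate 1 Alb had 9 counts, against 832 to 1835 counts in the other 5 libraries, and Ttr and Apoa2 had 0. The same library stands apart in Atp6v0c and Atp6v0e below, and the part of its liver transcripts in that was not tested. Leaving the pancreas and liver genes out of the fit moved no log2 fold change of a lysosome or V-ATPase gene by more than 0.00012. That step drops only those rows and keeps the counts of all other genes, so only the library scaling could move a fold change. Whether pancreas or liver transcripts add to the values of the lysosome and V-ATPase genes was not tested.

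Lysosome genes were among the most abundant transcripts of the line: 10 of the 46 genes, 9 lysosome genes and Atp6v1f, lay above 99% of all protein-coding genes in mean FPKM, the scale that compares genes per length. Psap, the precursor of the saposins that help degrade sphingolipids, was highest, at 482 ± 23.2 FPKM in mitochondria and 423 ± 6.37 FPKM in control libraries (SD, n = 3 each). The membrane protein gene Lamp1 followed, at 367 ± 12.9 FPKM in mitochondria and 409.7 ± 8.34 FPKM in control libraries. Next came the aspartic protease gene Ctsd, at 359 ± 14.0 FPKM in mitochondria and 325 ± 17.9 FPKM in control libraries, and the cysteine protease gene Ctsb, at 339 ± 5.10 FPKM in mitochondria and 330.4 ± 15.97 FPKM in control libraries (SD, n = 3). These neighbours did not all differ beyond their spread, and in mitochondria libraries Lamp1 and Ctsd overlapped. The regulators stood at the other end. Tfeb had 7.42 ± 0.0857 FPKM in mitochondria and 7.45 ± 0.173 FPKM in control libraries, and Mitf, the lowest of the tested members, had 1.98 ± 0.793 FPKM in mitochondria and 1.95 ± 0.735 FPKM in control libraries (SD, n = 3).

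Summed FPKM put the lysosome genes slightly above the control level and the membrane proteins below it. The 23 lysosome genes summed to 3024, 3071 and 3082 FPKM in mitochondria and 2947, 2934 and 3034 FPKM in control libraries, where control replicate 3 overlapped with the mitochondria group. Scaled so that every library has the same FPKM total (TPM), the sums were 9350.5, 9676 and 9522 TPM in mitochondria and 9012, 9078 and 9055 TPM in control libraries, and the groups did not overlap. Psap, at 482 FPKM in mitochondria and 423 FPKM in control libraries, differed most of the 23. Of these genes 11 had a log2 fold change above 0 and 12 below, so the sum does not describe most of them. The 6 proteases summed to 1241, 1272 and 1274.5 FPKM in mitochondria and 1177, 1126 and 1192 FPKM in control libraries, all mitochondria libraries above all control libraries. The 5 membrane proteins summed to 792, 757 and 766 FPKM in mitochondria and 808, 835 and 837 FPKM in control libraries, all below. The V-ATPase subunits summed to 746 ± 38.7 FPKM in mitochondria and 759 ± 13.6 FPKM in control libraries (SD, n = 3), with overlap.

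With mitochondria, the protease gene Ctsz (1.16-fold) and Psap (1.13-fold) had higher values in all 3 libraries than in any control library. Lamp1 (0.887-fold), Lamp2 (0.875-fold), the calcium channel gene Mcoln1 (0.836-fold) and the pump subunit gene Atp6v1a (0.916-fold) had lower values in all 3, but none of these genes passed the test. All 23 lysosome and 15 of the V-ATPase genes had a mean FPKM of at least 1 and entered it, the quasi-likelihood F-test of edgeR over 12774 genes. Of these 38, 0 passed a Benjamini-Hochberg adjusted p of 0.05, where 0.164% of all tested genes did (0.0626% higher and 0.102% lower). None had a fold change over 1.5 in either direction. The log2 fold change (mitochondria over control) was above 0 in 17 of the 38, where 49.6% of all tested genes lay above 0, and below 0 in 21, where 50.4% did. Its median was -0.025, against -0.0016 over all tested genes.

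Below the adjusted threshold the lower values outnumbered the higher ones. An unadjusted edgeR p under 0.05 was found for 11 of 38 (28.9%), 2 higher and 9 lower, and for 13% of all tested genes (6.79% higher and 6.24% lower). In 17 of the 38 the CPM values of the groups did not overlap, 4 higher (Ctsz, Psap, Ctsd and Neu1) and 13 lower, where 21.4% of all tested genes did not overlap (10.8% higher and 10.6% lower). DESeq2, run as an alternative, called 4 of the 38 (10.5%), Ctsz higher and Mcoln1, Lamp1 and Atp6v1a lower, against 2.82% of all genes (1.62% higher and 1.2% lower). Its unadjusted p was under 0.05 for 12 of the 38, against 14.1% of all genes (7.31% higher and 6.76% lower). In edgeR with a block for same-numbered libraries 0 of the 38 passed, as did 0% of all genes, and the smallest adjusted p of a member was 0.211. The unadjusted p of that fit was under 0.05 for 13 of the 38, 3 higher and 10 lower, against 16.9% of all genes (8.41% higher and 8.45% lower). Within same-numbered pairs 6 of the 38 were higher in 3 of 3 and 15 lower in 3 of 3, where 21.5% and 22.3% of all tested genes were.

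**Figure D1:**
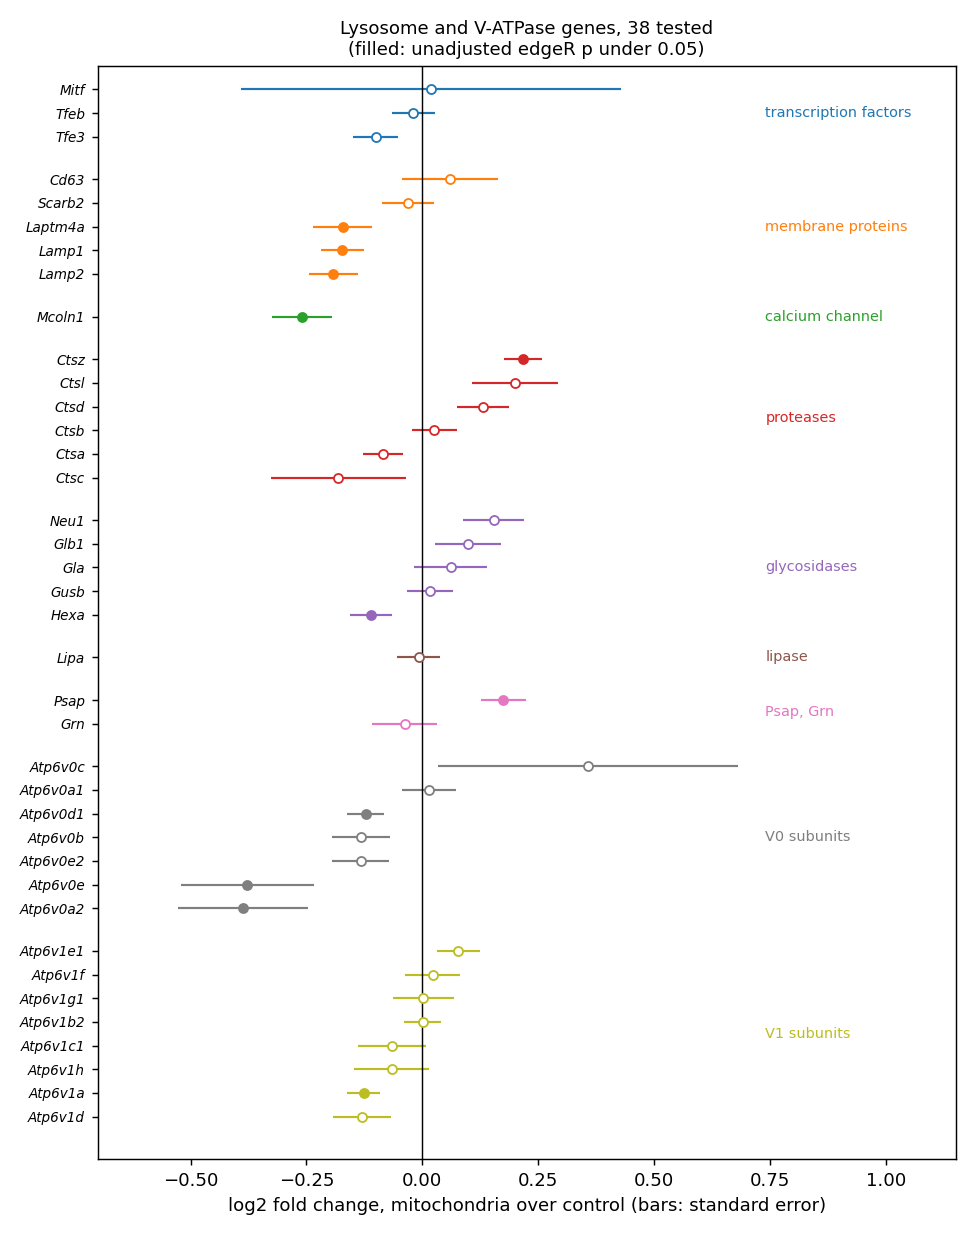
Log2 fold changes (mitochondria over control, x axis) of the 38 tested lysosome and V-ATPase genes grouped by role, with standard errors from edgeR as bars and filled points for an unadjusted p under 0.05. The filled points are Ctsz and Psap to the right of 0 and 9 genes to the left, and no gene passed after adjustment.

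The transcription factors of the lysosome program lay close to the control level, apart from the spread of Mitf. Tfeb had 48.1, 47.0 and 47.2 CPM in mitochondria and 48.2, 47.0 and 49.0 CPM in control libraries, with overlap (log2 fold change -0.019 ± 0.046, SE, edgeR adjusted p = 0.891). Tfe3 had 67.1, 69.9 and 64.3 CPM in mitochondria and 71.0, 73.1 and 71.8 CPM in control libraries, each mitochondria library below each control library (log2 fold change -0.10 ± 0.049, SE, edgeR adjusted p = 0.446). Mitf was the least even gene of the 38, at 18.3, 15.7 and 7.62 CPM in mitochondria and 7.75, 16.4 and 16.9 CPM in control libraries, and its standard error of 0.41 on the log2 scale was larger than that of any other tested member.

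Among the 5 membrane proteins 4 had fold changes below 1, and 3 of them had no overlap between the groups, where 50.4% of all tested genes had a log2 fold change below 0 and 10.6% were lower without overlap. Lamp1 (ENSMUSG00000031447, chromosome 8, 13159161 to 13175338 in GRCm38), the most abundant per length and the gene with 4 E-box copies shown above, had 1149, 1102 and 1065 CPM in mitochondria and 1263, 1259 and 1213 CPM in control libraries. All mitochondria libraries lay below all control libraries, at a log2 fold change of -0.17 ± 0.046 (SE, edgeR adjusted p = 0.261; DESeq2 adjusted p = 0.0494). Lamp2 (ENSMUSG00000016534, chromosome X, 38401357 to 38456454), which encodes the receptor of chaperone-mediated autophagy in 1 of its forms, had 354, 348 and 321 CPM in mitochondria and 395, 399.6 and 375 CPM in control libraries. The groups were again apart, at a log2 fold change of -0.19 ± 0.053 (SE, edgeR adjusted p = 0.268). Laptm4a, a small transmembrane protein of late endosomes and lysosomes, had 303, 310.4 and 287 CPM in mitochondria and 323, 366 and 324 CPM in control libraries (log2 fold change -0.17 ± 0.064, SE, edgeR adjusted p = 0.349).

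The other membrane proteins overlapped between the groups. The tetraspanin Cd63, a marker of late endosomes and exosomes, had 879, 776 and 911 CPM in mitochondria and 751, 773 and 939 CPM in control libraries. Scarb2, the carrier that brings glucocerebrosidase to the lysosome, had 116, 123 and 117 CPM in mitochondria and 119, 129 and 115 CPM in control libraries (log2 fold change -0.031 ± 0.056, SE, edgeR adjusted p = 0.850).

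Mcoln1 (ENSMUSG00000004567, chromosome 8, 3500457 to 3515232) encodes TRPML1, the channel that releases calcium from lysosomes, and had the lowest fold change of the 23 lysosome genes. It had 66.9, 66.6 and 68.2 CPM in mitochondria and 74.0, 81.2 and 86.2 CPM in control libraries. The mitochondria libraries lay close together and the control libraries spread more widely above them. The log2 fold change was -0.26 ± 0.065 (SE, edgeR adjusted p = 0.251; DESeq2 adjusted p = 0.0422).

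**Figure D2:**
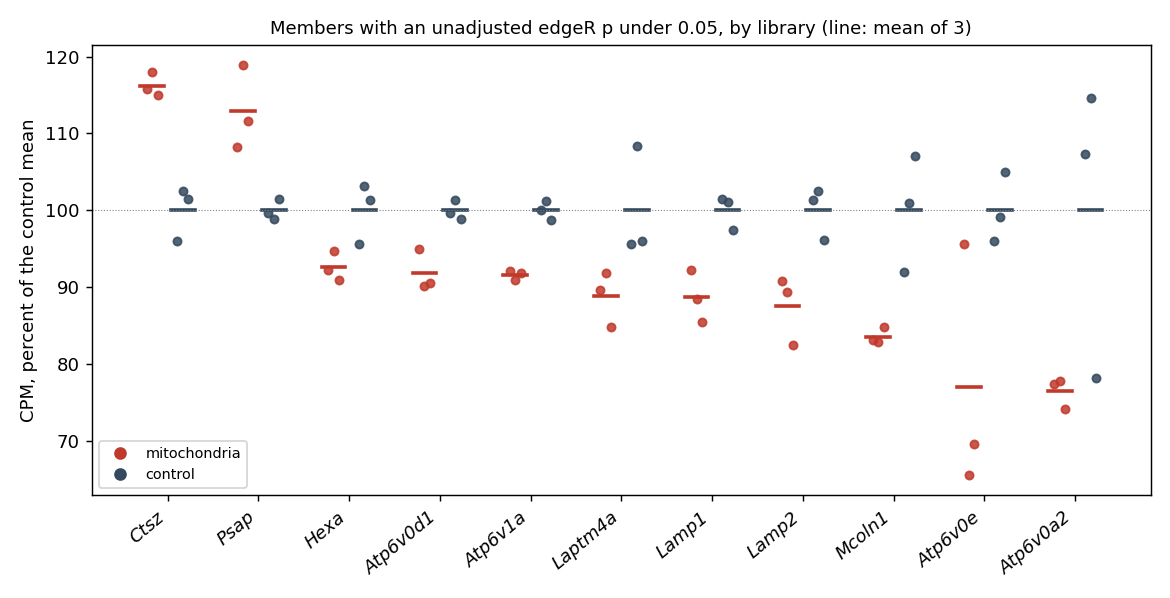
CPM of the 11 members with an unadjusted edgeR p under 0.05, each library as a point in percent of that gene's control mean, with the mean of 3 libraries as a line. Mitochondria libraries (left in each pair) of Ctsz and Psap lie above all control libraries and those of the other 9 genes below, narrowly so for Atp6v0e and Atp6v0a2.

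The soluble proteins of the lumen lay on both sides of the control level. Of 14 such genes 9 had a log2 fold change above 0 and 5 below, with a median of 0.043. Ctsz (ENSMUSG00000016256, chromosome 2, 174427493 to 174439039), a carboxypeptidase, had the smallest edgeR p of the 38 genes, with 498, 508 and 495 CPM in mitochondria and 413, 441 and 437 CPM in control libraries. All 3 mitochondria libraries were above all 3 control libraries. The log2 fold change of 0.22 ± 0.042 (SE) had an edgeR adjusted p of 0.209 and a DESeq2 adjusted p of 0.00205. Psap (ENSMUSG00000004207, chromosome 10, 60277627 to 60302597) had 1428, 1569 and 1472 CPM in mitochondria and 1314, 1305 and 1339 CPM in control libraries, also without overlap (log2 fold change 0.18 ± 0.049, SE, edgeR adjusted p = 0.272). Grn, the gene of progranulin, a secreted protein that is also processed in lysosomes, had 673, 691 and 788 CPM in mitochondria and 719.5, 719.8 and 770.1 CPM in control libraries, with overlap.

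The proteases Ctsd and Ctsl had fold changes above 1 like Ctsz, with wider spreads. Both hold the E-box letters, as does the protease gene Ctsa, which lay below 1. Ctsd had 912, 959 and 979.5 CPM in mitochondria and 895, 813 and 894 CPM in control libraries, without overlap (log2 fold change 0.13 ± 0.056, SE, edgeR adjusted p = 0.392). Ctsl had 935, 976 and 959 CPM in mitochondria and 957, 749 and 795 CPM in control libraries, where control replicate 1 was as high as the mitochondria libraries (log2 fold change 0.20 ± 0.093, SE, edgeR adjusted p = 0.430). Ctsb had 2291, 2302 and 2343 CPM in mitochondria and 2249, 2178 and 2386 CPM in control libraries, with overlap.

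The remaining proteases lay the other way. Ctsa, the protective protein that stabilises the sialidase NEU1 and beta-galactosidase, had 519, 487 and 506 CPM in mitochondria and 534, 521 and 549.6 CPM in control libraries, narrowly without overlap (log2 fold change -0.085 ± 0.044, SE, edgeR adjusted p = 0.463). Ctsc, a dipeptidyl peptidase that activates granule proteases in immune cells, had 199.7, 234 and 160 CPM in mitochondria and 224, 246 and 203 CPM in control libraries, with overlap (log2 fold change -0.18 ± 0.15, SE, edgeR adjusted p = 0.633). It was lower in 3 of 3 same-numbered pairs, with an edgeR adjusted p of 0.265 in the block fit.

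Of the 5 glycosidases 4 had fold changes above 1. Neu1, the sialidase, had 108, 101 and 112 CPM in mitochondria and 98.4, 89.4 and 101 CPM in control libraries, which did not overlap by a narrow margin (log2 fold change 0.15 ± 0.066, SE, edgeR adjusted p = 0.395). Hexa, the alpha subunit of the hexosaminidase that degrades GM2 ganglioside, lay the other way, with 492, 506 and 485 CPM in mitochondria and 510.3, 550.5 and 541 CPM in control libraries (log2 fold change -0.11 ± 0.045, SE, edgeR adjusted p = 0.378). The other glycosidases overlapped between the groups: Glb1, beta-galactosidase, had 22.2 ± 1.52 FPKM in mitochondria and 20.5 ± 1.202 FPKM in control libraries, Gla, alpha-galactosidase A, 21.8 ± 2.04 FPKM and 20.7 ± 1.17 FPKM, and Gusb, beta-glucuronidase, 27.8 ± 1.62 FPKM and 27.2 ± 0.206 FPKM in mitochondria and control libraries (SD, n = 3). Lipa, the acid lipase of cholesteryl esters, had 144, 138 and 133 CPM in mitochondria and 143, 135 and 139 CPM in control libraries, also with overlap.

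The transcripts of most V-ATPase subunits came from 1 main gene. Of the d transcripts per length, Atp6v0d1 gave over 99.9% in each library, and Atp6v1b2 gave 99.9% ± 0.0623 of B in mitochondria and 99.9% ± 0.137 in control libraries (SD, n = 3). Atp6v1c1 gave 99.3% ± 0.260 of C in mitochondria and 99.3% ± 0.153 in control libraries, and Atp6v1g1 99.4% ± 0.0705 of G in mitochondria and 99.5% ± 0.170 in control libraries. The minor genes of these and other subunits had low counts. Atp6v1g3 had a count of 0 in all 6 libraries, Atp6v0d2 a count of 0 in 5 and 8 counts in control replicate 1, and Atp6v1fnb 4 counts in control replicate 2 alone. Atp6v1e2 had 0 to 2 counts in mitochondria and 0 to 16 counts in control libraries, and Atp6v1b1 4 to 15 counts in mitochondria and 0 to 24 counts in control libraries. Atp6v1c2 had 23 to 49 counts in mitochondria and 30 to 50 counts in control libraries, Atp6v0a4 42 to 110 counts in mitochondria and 44 to 124 counts in control libraries, and Atp6v1g2 139 to 163 counts in mitochondria and 82 to 161 counts in control libraries. These 8 genes were below a mean FPKM of 1 and were not tested, and a count under 12, about 3 fragments, cannot be told from 0 at this depth.

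The membrane-spanning a subunit was shared between 3 genes. Tcirg1, the a3 gene, which lies outside the name rule and was taken from a list of V-ATPase accessory genes, gave 50.4% ± 2.01 of a-subunit FPKM in mitochondria and 50.8% ± 1.503 in control libraries. Atp6v0a1 gave 37.6% ± 1.88 in mitochondria and 34.7% ± 2.30 in control libraries, and Atp6v0a2, whose product acts mainly in the Golgi and endosomes, 11.6% ± 0.411 in mitochondria and 14.1% ± 2.09 in control libraries (SD, n = 3). The e subunit came from Atp6v0e and Atp6v0e2, with 65.1% ± 5.10 of its FPKM from Atp6v0e in mitochondria and 69.3% ± 1.06 in control libraries. The catalytic A and the B subunit stand in equal copies in the complex, while Atp6v1a had 4.58 ± 0.0941 times the FPKM of Atp6v1b2 in mitochondria and 5.00 ± 0.0940 times in control libraries (SD, n = 3), a ratio formed after the values were seen. It compares transcripts per length and does not measure copies of the proteins.

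**Figure D3:**
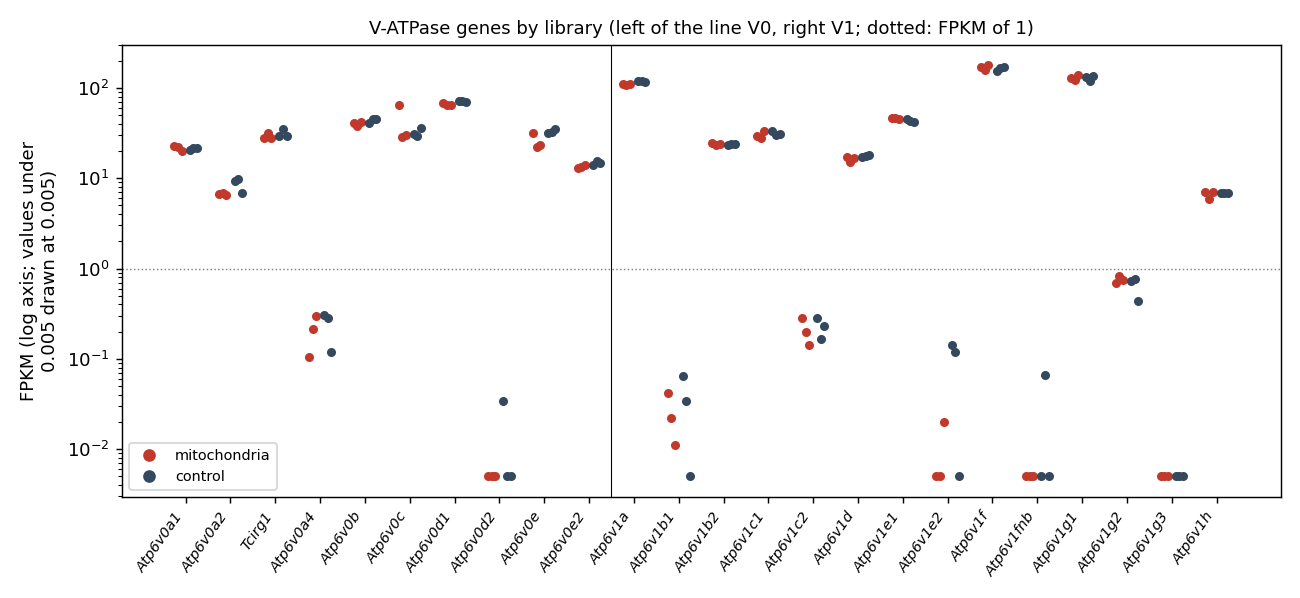
FPKM of the V-ATPase genes and of Tcirg1 (log axis), with 3 mitochondria libraries to the left and 3 control libraries to the right for each gene, V0 genes left of the line and V1 genes right of it. Atp6v1f, Atp6v1g1 and Atp6v1a are the highest, and 8 genes lie below the dotted line at an FPKM of 1.

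None of the 15 tested V-ATPase genes was higher in all mitochondria libraries than in all control libraries, and 6 were lower in all, where 10.8% of all tested genes were higher and 10.6% lower without overlap. The tightest was Atp6v1a (ENSMUSG00000052459, chromosome 16, 44085402 to 44139705), the catalytic subunit, with 748, 739 and 746 CPM in mitochondria and 813, 823 and 803 CPM in control libraries. The gap between the groups was wider than the spread within either. Its log2 fold change was -0.13 ± 0.036 (SE, edgeR adjusted p = 0.278; DESeq2 adjusted p = 0.0333). Atp6v0d1, the subunit that couples the V0 ring to the central stalk, had 138, 131 and 131 CPM in mitochondria and 145, 147 and 143 CPM in control libraries (log2 fold change -0.12 ± 0.040, SE, edgeR adjusted p = 0.307). Its partner in the stalk, Atp6v1d, had 89.1, 77.7 and 86.5 CPM in mitochondria and 89.9, 92.8 and 94.3 CPM in control libraries, narrowly apart (log2 fold change -0.13 ± 0.062, SE, edgeR adjusted p = 0.442).

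The lowest fold changes of the pump were in genes where 1 library stood near the other group. Atp6v0a2 had 51.3, 51.6 and 49.2 CPM in mitochondria and 71.1, 75.9 and 51.8 CPM in control libraries, so that control replicate 3 stood with the mitochondria libraries. The log2 fold change was -0.39 ± 0.14 (SE, edgeR adjusted p = 0.339), and lay between -0.54 and -0.28 when 1 library was left out. Atp6v0e had 134, 91.7 and 97.4 CPM in mitochondria and 134, 139 and 147 CPM in control libraries, with mitochondria replicate 1 at the control level. Its log2 fold change was -0.38 ± 0.14 (SE, edgeR adjusted p = 0.356), -0.57 at the lowest and -0.27 at the highest with 1 library left out. Atp6v0e2, the other e gene, had 35.01, 36.05 and 37.6 CPM in mitochondria and 37.98, 41.5 and 39.75 CPM in control libraries, narrowly apart (log2 fold change -0.13 ± 0.061, SE, edgeR adjusted p = 0.425).

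The other subunits overlapped between the groups. In V0, Atp6v0a1 had 168, 163 and 148 CPM in mitochondria and 154, 161 and 160 CPM in control libraries, and Atp6v0b, a proteolipid of the ring, had 93.4, 88.2 and 96.4 CPM in mitochondria and 94.2, 104 and 106 CPM in control libraries (log2 fold change -0.13 ± 0.063, SE, edgeR adjusted p = 0.441). In V1, the nucleotide-binding Atp6v1b2 had 147, 140 and 141 CPM in mitochondria and 140, 146 and 143 CPM in control libraries. Of the genes for the outer stalks, Atp6v1e1 had 216, 216 and 207 CPM in mitochondria and 211, 201 and 194 CPM in control libraries, Atp6v1g1 had 165, 158 and 175 CPM in mitochondria and 168, 153 and 175 CPM in control libraries, and Atp6v1c1 had 188, 178 and 209.5 CPM in mitochondria and 213, 193 and 196 CPM in control libraries. Atp6v1f, of the central stalk, had 202, 188 and 213 CPM in mitochondria and 188, 201 and 204 CPM in control libraries. Atp6v1h, a regulatory subunit, had 76.5, 64.0 and 77.8 CPM in mitochondria and 76.0, 76.0 and 76.5 CPM in control libraries. The log2 fold changes of these 6 V1 genes lay between -0.066 for Atp6v1h and 0.077 for Atp6v1e1.

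Atp6v0c (ENSMUSG00000024121, chromosome 17, 24163866 to 24169702), the gene of the proteolipid that forms most of the V0 ring, had the highest fold change of the 38 and 1 of the least certain. It had 248, 109 and 115 CPM in mitochondria and 118, 113 and 137 CPM in control libraries, so mitochondria replicate 1 alone was high. The log2 fold change of 0.36 ± 0.32 (SE, edgeR adjusted p = 0.672) turned to -0.13 without that library. The processed pseudogene Atp6v0c-ps2 on chromosome 6 is 99.8% identical to an Atp6v0c transcript over all 465 of its own bases, so that reads could be split between them. Per length it was listed at a mean of 386 FPKM over the 6 libraries, against 36.6 FPKM for Atp6v0c. It had 196, 193 and 183 CPM in mitochondria and 224, 209 and 213 CPM in control libraries. The sum of both was 444, 302 and 298 CPM in mitochondria and 341, 323 and 351 CPM in control libraries, a log2 fold change of 0.040 ± 0.16 (SE, edgeR adjusted p = 0.936).

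Other members also have an expressed near-identical copy, and their values are uncertain to that extent. These were Cd63 (Cd63-ps, 98.9% identical, 57.4 FPKM), Atp6v1g1 (Gm13453, 99.4%, 64.9 FPKM) and Atp6v1f (Gm9349, 97.5%, 1.11 FPKM). Gm13453 had 26.7, 29.1 and 40.1 CPM in mitochondria and 18.6, 17.8 and 24.8 CPM in control libraries, without overlap, and with its counts added the log2 fold change of Atp6v1g1 was 0.089 ± 0.080 (SE, edgeR adjusted p = 0.668), against 0.0023 without them. Ctsb, Ctsa, Ctsz and Lamp1 overlap the genes Fdft1, Pltp, Nelfcd and Grtp1 on the other strand, whose mean FPKM was 16.3, 24.1, 22.3 and 1.98. Glb1 overlaps Tmppe (3.32 FPKM) on its own strand, where strand cannot separate their reads. The strand setting of the counting was not given in the sources used here.

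**Figure D4:**
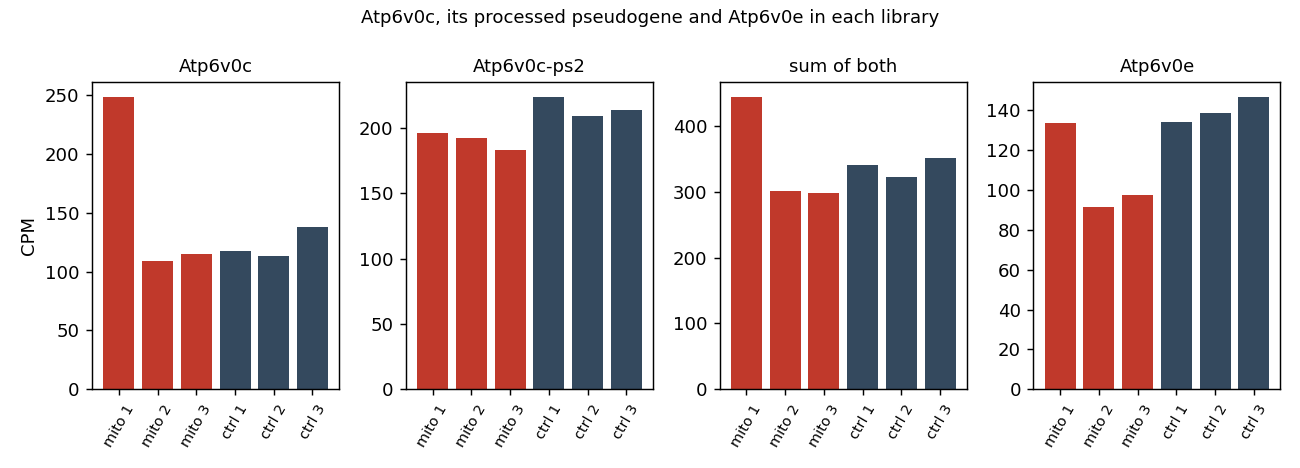
CPM in each library (bars, 3 mitochondria libraries then 3 control libraries) of Atp6v0c, its pseudogene Atp6v0c-ps2, the sum of both, and Atp6v0e. The bar of mitochondria replicate 1 for Atp6v0c stands at 248 CPM against 109 to 137 CPM in the other 5 libraries, and for Atp6v0e the same library is at the control level.

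Genes of the wider route were examined as 7 lists, in which edgeR called 0 genes at its adjusted p, and DESeq2 called the 5 named with its p here, 3.31% of the 151 tested list genes, against 2.82% of all genes. The share of each list with an unadjusted edgeR p under 0.05 is set against 13% of all tested genes. It was 5.56% for other membrane proteins, 5.88% for genes that sort hydrolases and 18.2% for V-ATPase accessory genes. For TFEB control it was 19.0% and for late endosome fusion 22.2%. For the 36 tested hydrolases beyond the members it was 13.9%, 3 higher and 2 lower. Galns, a sulfatase, had 37.3, 37.4 and 33.45 CPM in mitochondria and 30.9, 28.9 and 28.8 CPM in control libraries (log2 fold change 0.29 ± 0.071, SE, edgeR adjusted p = 0.251; DESeq2 adjusted p = 0.0416). Asah1, the acid ceramidase, had 169, 165 and 163 CPM in mitochondria and 182, 191 and 181 CPM in control libraries (log2 fold change -0.15 ± 0.041, SE, edgeR adjusted p = 0.261). The others were Arsa and Manba with higher and Tpp1 with lower values.

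Of 18 other membrane proteins 9 had a log2 fold change above 0 and 9 below. Of these 1 lay under that p, Laptm4b, the relative of Laptm4a, with 321, 319 and 307 CPM in mitochondria and 342, 357 and 345 CPM in control libraries (log2 fold change -0.14 ± 0.040, SE, edgeR adjusted p = 0.279). Lmbrd1, which takes part in the export of cobalamin from lysosomes, came next by p, at a log2 fold change of -0.15 ± 0.067. Of 11 V-ATPase accessory genes 2 lay under it, both higher: the assembly factor Tmem199 with a log2 fold change of 0.16 ± 0.054 and Rogdi with 0.20 ± 0.074 (SE, edgeR adjusted p = 0.313 and 0.356).

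Of 17 genes that sort hydrolases to the lysosome 1 lay under an unadjusted edgeR p of 0.05, Ap3m1, a subunit of the adaptor AP-3 that carries membrane proteins such as LAMP1. It had 192, 183 and 187 CPM in mitochondria and 211, 218 and 216 CPM in control libraries, a log2 fold change of -0.20 ± 0.039 (SE, edgeR adjusted p = 0.205; DESeq2 adjusted p = 0.00204). Ap1b1, of the adaptor AP-1, came next by p at 0.074 ± 0.038. Of 18 genes of late endosome fusion 4 lay under it, with Plekhm1 and Vps18, which act in tethering, at log2 fold changes of 0.15 ± 0.048 and 0.15 ± 0.051, and Stx7 and Snap29, SNAREs of the fusion step, at -0.14 ± 0.049 and -0.13 ± 0.048 (SE).

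The list of TFEB control held 21 tested genes, of mTORC1 and its lysosomal anchor, of calcineurin, and the relative Tfec, and 4 lay under it, 1 higher and 3 lower. Lamtor1, the anchor of the Ragulator complex on the lysosome, had 113, 110.2 and 112 CPM in mitochondria and 123, 125 and 128 CPM in control libraries (log2 fold change -0.16 ± 0.038, SE, edgeR adjusted p = 0.245; DESeq2 adjusted p = 0.0224). Mlst8, a subunit of mTORC1, had 33.9, 32.7 and 34.5 CPM in mitochondria and 29.0, 28.2 and 28.9 CPM in control libraries (log2 fold change 0.23 ± 0.057, SE, edgeR adjusted p = 0.251; DESeq2 adjusted p = 0.0270). The others were Rragc, a Rag GTPase, and Lamtor5, of Ragulator, at log2 fold changes of -0.16 ± 0.042 and -0.27 ± 0.092 (SE).

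Of 30 autophagy genes 4 lay under it (13.3%), 3 higher and 1 lower. Atg101, of the initiating ULK complex, had 67.9, 66.8 and 69.1 CPM in mitochondria and 58.6, 57.1 and 56.9 CPM in control libraries (log2 fold change 0.24 ± 0.044, SE, edgeR adjusted p = 0.187; DESeq2 adjusted p = 0.00124). Gabarap, which binds autophagosome membranes, had 197, 175 and 180 CPM in mitochondria and 208, 212 and 213 CPM in control libraries (log2 fold change -0.20 ± 0.053, SE, edgeR adjusted p = 0.263). Its relative Gabarapl2 and the protease gene Atg4b had log2 fold changes of 0.18 ± 0.063 and 0.12 ± 0.049 (SE). The medians of the 7 lists lay between -0.045 for TFEB control and 0.022 for autophagy.

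**Figure D5:**
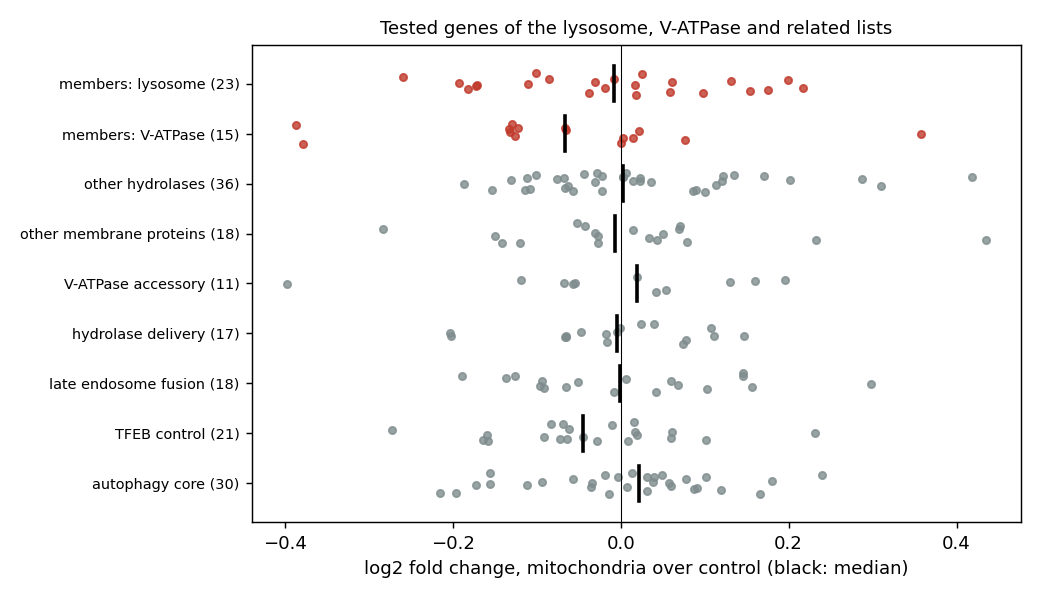
Log2 fold changes (mitochondria over control) of the tested lysosome and V-ATPase genes and of 7 lists of related genes, 1 point per gene, with the number of tested genes in parentheses and the median as a black line. The medians lie at -0.0080 for the lysosome genes, -0.066 for the V-ATPase genes and between -0.045 and 0.022 for the other lists.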

How the data were processed

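A stranded mRNA kit was used for the RNA libraries, per the labels' protocols. Cutadapt 1.9, HISAT2 2.2.1, StringTie 2.1.6, DESeq2, edgeR and GRCm38 are named, with no role given, per the submitters' processing notes. The authors deposited FPKM values and estimated counts per gene in 1 table, per the file headers. These deposited estimated counts, though whole, follow FPKM times length within 1% for 99.4% of 976 single-transcript genes, and 36.6% of counts from 1 to 20 are multiples of 4 (25% if even). About 4 counts were therefore taken as 1 fragment, with a floor of 12 counts (0.164 to 0.184 CPM, counting error only).

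Counts were tested as deposited with edgeR 4.0.16 (R 4.3.3) by quasi-likelihood, TMM factors of 0.996 to 1.007, no covariate, and genes with a mean FPKM of at least 1. Standard errors come from the F statistic. CPM uses TMM-scaled totals. DESeq2 1.42.0, limma 3.58.1 on log2(FPKM + 1) and other settings were alternatives. The fit was tested on simulated data, in which the changes were larger than those of most members. That test does not show whether changes as small as theirs would pass. The labels number the replicates but state no shared source, so a fit with a block for same-numbered libraries was an alternative. Deviations from the group means of same-numbered libraries correlated at 0.150, 0.172 and 0.266 across genes, and of others at -0.223 to 0.0593. That pairing was seen in the data and is not stated in the labels. Promoter letters are from RefSeq (GRCm38.p6). Pseudogenes were compared with GENCODE M21 transcripts. Members and lists were chosen with earlier results of these data known. Named are all members and, from each list, genes that passed or the 2 with the smallest p. Further list genes (Arsa, Manba, Tpp1, Stx7, Snap29, Rragc, Lamtor5, Gabarapl2, Atg4b) and the pseudogenes were named after their values were seen.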

Additional observations from a re-analysis of the deposited data

How the results depend on the processing

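The number of called lysosome and V-ATPase genes was 0 in the edgeR fit and in every alternative except DESeq2, which called 4. Over all genes edgeR made 21 calls, 13 of them lower, and 10 of these 13 were genes of the pancreatic acinar list. The 21 calls became 360 with DESeq2 and 8 with a mean FPKM of at least 5. Without the pancreas and liver genes, a setting that takes those 10 out of the fit, there were 7. The replicate block gave 0. With 1 library left out there were 1 to 27, 1 without control replicate 1 and 12 without control replicate 3. What else moved these numbers was not tested. The median log2 fold change of the members was -0.068 with no filter, where 7 genes below a mean FPKM of 1 enter. It was -0.043 to -0.0063 with 1 library left out (-0.0063 without control replicate 3). The summed FPKM of the 23 lysosome genes differed by 87.2 between mitochondria and control libraries, by 152 with equal library sums and by 28.4 without Psap. All 11 members with an unadjusted edgeR p under 0.05 kept their sign in all 18 alternatives. They were picked by that p from the same libraries, and in each the groups did not overlap. Leaving 1 library out could therefore hardly turn a sign, and the kept signs add no separate evidence. Of the 38, 13 changed sign in at least 1 alternative, each within 0.066 of 0 on the log2 scale except Atp6v0c. Adding pseudogene counts to the parent gene was chosen after seeing the data. The replicate block could not remove a call of a member, as the main fit had 0, and it called 0 of all genes.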

Other observations

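The deposited table also annotates genes with KEGG pathway terms, and its lysosome term held 124 protein-coding genes, of which 103 were tested and 0 called by edgeR (17 at an unadjusted p under 0.05, 5 higher and 12 lower; 6 called by DESeq2). These are 16.5% at the unadjusted p and 5.83% called by DESeq2, against 13% and 2.82% of all tested genes, and members are among them. Without the members 78 were tested, 39 higher and 39 lower (median 0.0014 on the log2 scale), and 10.3% at an unadjusted edgeR p under 0.05, against 13% of all tested genes, of which 49.6% were higher and 50.4% lower. The sialomucin gene Cd164, named after its values were seen, had a log2 fold change of -0.22 ± 0.043 (SE, edgeR adjusted p = 0.210; DESeq2 adjusted p = 0.00285).

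Because the soluble proteins Ctsz and Psap and the membrane protein Lamp1 lay on opposite sides, their ratio within each library was formed after the values were seen, as a description with no test. The FPKM of Ctsz was 0.841 ± 0.0316 times that of Lamp1 in mitochondria and 0.642 ± 0.0311 times in control libraries (SD, n = 3). That of Psap was 1.32 ± 0.0922 times that of Lamp1 in mitochondria and 1.03 ± 0.0366 times in control libraries, and in both ratios the groups did not overlap. That had to follow, because each of these genes was already without overlap and on opposite sides, so it adds nothing to their separate values. The ratio of Lamp1 to Lamp2 was 11.6 ± 0.269 in mitochondria and 11.4 ± 0.153 in control libraries, with overlapping groups.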
